A study of Mus musculus with 8 samples.

Results

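The mRNA of mouse embryonic stem cells was compared after knockdown of Lin28a with that after a control siRNA, 1 poly(A) RNA library against 1. All libraries came from the A3-1 line, grown in medium with 20% serum and leukaemia inhibitory factor (LIF). The control cells received an siRNA against luciferase (siLuc), a gene that mouse cells lack, and the knockdown cells an siRNA against Lin28a (siLin28a), each for 48 h. Another poly(A) library, from untreated A3-1 cells, served only to show on which side of an untransfected culture a value lay. The members are the transcripts with at least 200 counts summed over the siLuc and siLin28a libraries, 8859 of the 16456 in the table. Levels are counts per 1000000 counts of the library (CPM), from totals of 7475174 counts with siLuc, 9605641 with siLin28a and 9264777 untreated. With 1 library per condition no difference has a replicate check, so each interval below is a 95% exact Clopper-Pearson interval of the ratio and covers counting error only. The siRNAs entered whole cultures, and fewer cells of a type cannot be told apart from less RNA per cell.

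LIN28A is an RNA-binding protein of stem cells and early embryos. It binds the precursors of let-7 microRNAs and blocks their maturation, and it also binds many mRNAs directly, where it has been linked to altered translation. Mature let-7 represses mRNAs with sites that pair to its seed, bases 2 to 8, among them Lin28a itself.

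The strands of both siRNAs are shown because they are the perturbation. Capitals mark bases 2 to 8, through which an siRNA strand can pair with mRNAs other than its target. The labels do not say which strand is the guide, and each carries a dTdT overhang that is left out here.
luciferase strand 1: uCGAAGUAcucagcguaag
luciferase strand 2: cUUACGCUgaguacuucga
Lin28a strand 1: aUGUUCUUcccuuuuggcc
Lin28a strand 2: gGCCAAAAgggaagaacau

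The targeted mRNA was lower, as the label of the library says. Lin28a (mm9 chr4:133559245-133574731) had 465 CPM untreated, 354 with siLuc and 118 with siLin28a. The siLin28a level was 33.4% of the siLuc level (31.1% to 35.8%), a log2 ratio of -1.58 (-1.68 to -1.48), and the siLuc level was itself below the untreated one. Ribosome footprints on Lin28a, sequenced from the same 2 siRNA treatments, were 118.6 CPM with siLuc and 30.4 CPM with siLin28a. For Lin28a the tallies of the same library differ between the deposited tables, as they do for 871 of the 8859 transcripts, and the poly(A) table was used throughout. Lin28b, the paralog that also blocks let-7 maturation, was lower too, with 65.5 CPM untreated, 51.8 with siLuc and 33.9 with siLin28a and a log2 ratio of -0.61 (-0.83 to -0.39).

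The let-7 family is shown because its targets are the mRNAs through which loss of LIN28A is best known to act. Of 11 mature family members in RefSeq (GRCm38.p6), 10 share the seed GAGGUAG, and 3 of those 10 are printed with the seed in capitals.
mmu-let-7a-5p: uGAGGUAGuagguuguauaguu
mmu-let-7g-5p: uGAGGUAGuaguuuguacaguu
mmu-miR-98-5p: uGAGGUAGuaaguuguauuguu

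Transcripts known as let-7 targets did not move as a block. The 44 measured members, of 50 written into the list, had a median log2 ratio of 0.04, beside -0.0018 over all 8859 transcripts. At 1.5-fold or more, 3 were higher and 3 lower, Lin28a among the latter, where 7.62% of all transcripts were that much higher and 4.5% that much lower. Sall4, a zinc finger factor of pluripotent cells, had 349 CPM untreated, 218 with siLuc and 382 with siLin28a (log2 ratio 0.81, 0.72 to 0.89), and with siLin28a it was close to its untreated level. The imprinted gene Peg10 had 220.2 CPM untreated, 196 with siLuc and 329.8 with siLin28a (log2 ratio 0.75). The median of the let-7 targets against the untreated library was 0.01. Mature let-7 was not measured in these poly(A) libraries, so whether it differed between the siRNAs is not known here.

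Most transcripts differed little between the siRNAs. The log2 ratio was within 1.5-fold for 87.9% of transcripts, with a scaled median absolute deviation of 0.36. The tails were unequal: 146 transcripts (1.65%) were at least 2-fold higher with siLin28a and 39 (0.44%) at least 2-fold lower. Of the 146, 145 also lay above the untreated library, and of the 39, 38 lay below it. Over all 8859 transcripts 4301 lay above it and 4558 below it. That comparison uses the same siLin28a library and is a check of direction only. The siLuc and untreated libraries, which carry no knockdown, differed with a scaled median absolute deviation of 0.31, close to the 0.36 seen between the siRNAs. The counting interval excluded 0 for 60.7% of transcripts, but the spread between cultures of 1 condition was not measured.

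**Figure D1:**
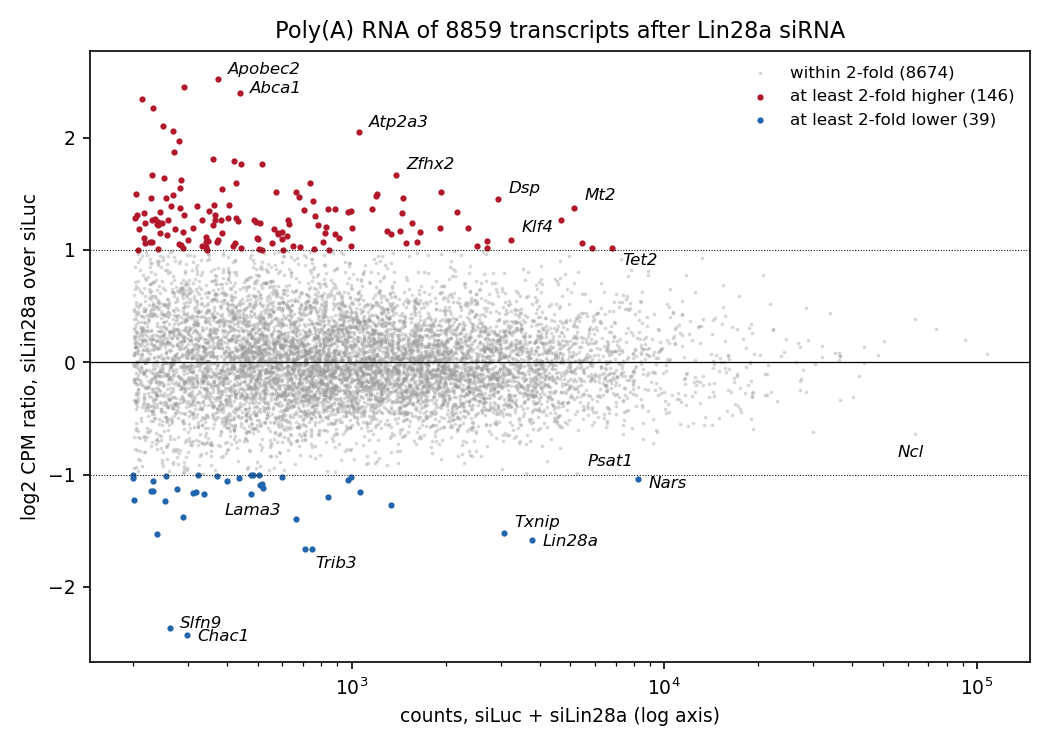
Each point is 1 of 8859 transcripts. The horizontal axis gives the counts summed over both siRNA libraries (log axis) and the vertical axis the log2 CPM ratio of siLin28a over siLuc. The 146 transcripts at least 2-fold higher (red) reach 2.53 and most have few counts, while the 39 at least 2-fold lower (blue) include Chac1 at -2.43 and Lin28a at -1.58. Dotted lines mark 2-fold.

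The cells carried the markers of naive embryonic stem cells in every library. The 10 naive markers in the table summed to 4944 CPM untreated, 5001 with siLuc and 6053 with siLin28a. Of markers of other types, primitive and visceral endoderm summed to 7.45, 5.35 and 7.6 CPM in the same order, trophectoderm to 16.2, 19.9 and 32.9, and mesoderm and primitive streak to 7.88, 11.6 and 24.5. The last 2 sums were higher with siLin28a than in either other library. Neuroectoderm and neuron markers summed to 242, 254 and 238 CPM, mostly Stmn2. Stmn2 had 172 CPM with siLuc and 125 with siLin28a, and Pax6 was lower too, while Tubb3, Nefl, Nes, Nefm and Sox1 were higher. The 2-cell-like and germline markers summed to 73.7, 81.3 and 57.9 CPM. Parietal endoderm markers, which are mostly basement membrane genes that stem cells also express, summed to 1933, 1630 and 2005 CPM. Fibroblast (feeder) markers summed to 185, 294 and 309 CPM, mostly Vim. None of the markers in the table was at 0 in all 3 libraries. Markers missing from the table could not be counted: it held 6 of 11 fibroblast markers written and 9 of 11 of primitive and visceral endoderm. Whether these markers bear on any result below was not tested.

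Among gene lists with 5 or more measured members, the lowest median was that of targets of ATF4, the transcription factor of the integrated stress response, which switches on amino acid synthesis and uptake, tRNA charging and regulators of stress signalling. Of 36 measured members of 45 written, 35 had a negative log2 ratio and 14 were at least 1.5-fold lower (38.9%), with none that much higher. Over all 8859 transcripts 4.5% were that much lower and 7.62% that much higher. With a median of -0.0018 over all, positive and negative ratios were nearly even. These shares are the background for the counts of every list below. The lists were chosen with earlier results of these data known, so a rank among them is not independent of these data. The median was -0.46 against siLuc and -0.37 against the untreated library, and siLuc lay above untreated by a median of 0.17.

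**Figure D2:**
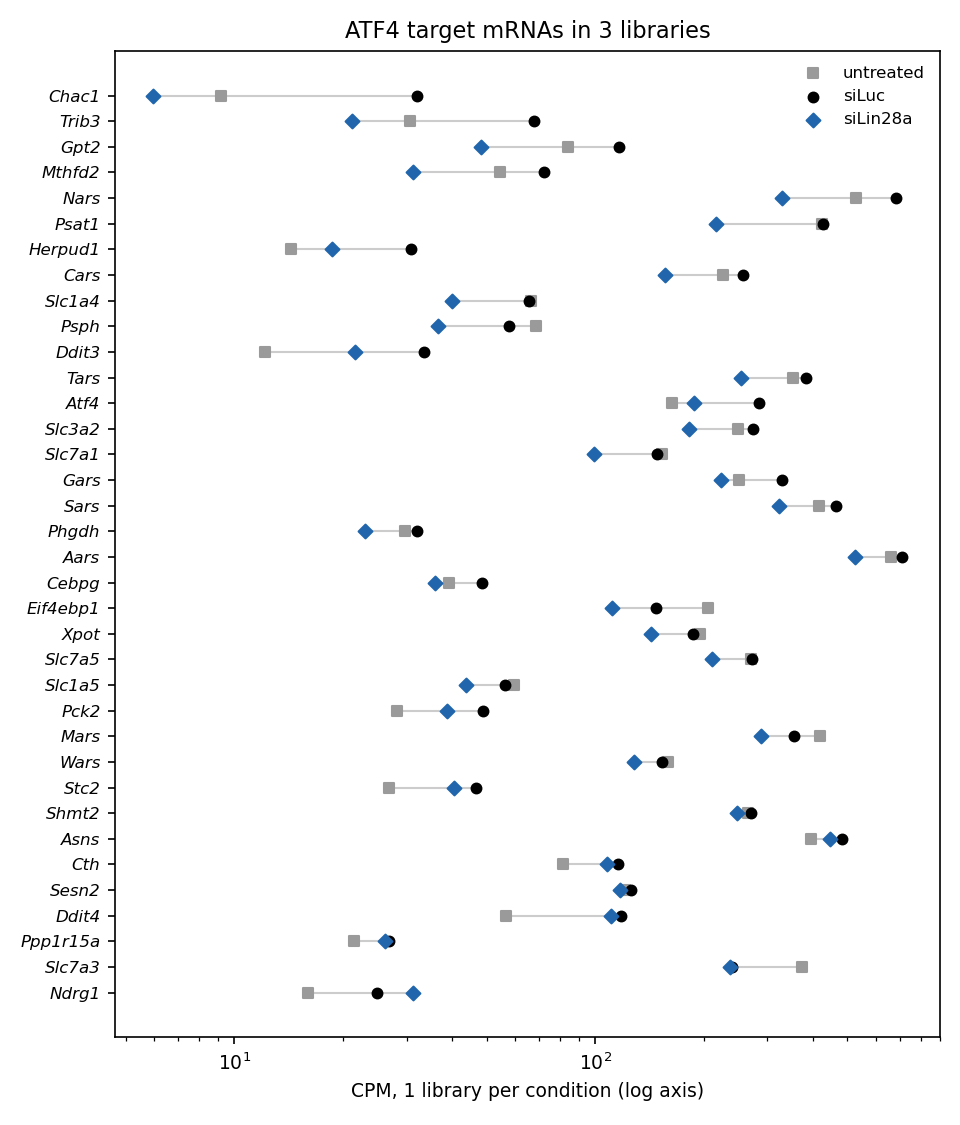
CPM (log axis) of the 36 measured ATF4 targets, ordered by the siLin28a to siLuc ratio, in 3 libraries with 1 library per condition. Diamonds (siLin28a) lie left of circles (siLuc) for 35 of 36 genes, while squares (untreated) lie between or on either side. Chac1 at the top was 5.93 CPM with siLin28a, 32.1 with siLuc and 9.17 untreated.

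The lowest members of this set were Chac1 and Trib3. Chac1 (mm9 chr2:119176978-119180062), which degrades glutathione, had 9.17 CPM untreated, 32.1 with siLuc and 5.93 with siLin28a, the lowest log2 ratio of all transcripts at -2.43 (-2.88 to -2.01). Trib3, a pseudokinase that inhibits AKT and ATF4, had 30.8 CPM untreated, 67.6 with siLuc and 21.2 with siLin28a (log2 ratio -1.67, -1.91 to -1.43). For both genes siLuc was the high library and siLin28a was below untreated. Atf4 itself and Ddit3, the stress factor CHOP, were picked out after their values were seen. Atf4 had 164 CPM untreated, 285 with siLuc and 188 with siLin28a (log2 ratio -0.60), and Ddit3 had 12.2 CPM untreated, 33.6 with siLuc and 21.7 with siLin28a (log2 ratio -0.63). Unlike Chac1, both kept a siLin28a level above the untreated one. Ppp1r15a, which restores translation by dephosphorylating eIF2, had 21.5 CPM untreated, 26.9 with siLuc and 26.1 with siLin28a, a ratio near 0. Ndrg1 was the 1 member with a positive ratio, 0.33 (0.06 to 0.60).

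Several amino acid enzymes of the set were lower as well. Gpt2, the mitochondrial alanine transaminase, had 84.3 CPM untreated, 117 with siLuc and 48.3 with siLin28a (log2 ratio -1.27, -1.44 to -1.11). Psat1, the transaminase of serine synthesis, had 426 CPM untreated, 426 with siLuc and 216 with siLin28a (log2 ratio -0.98, -1.06 to -0.90), and here siLuc and untreated were alike. Mthfd2, a mitochondrial folate enzyme, had 54.6 CPM untreated, 72 with siLuc and 31.3 with siLin28a (log2 ratio -1.20). These 3 mRNAs were lowest with siLin28a whichever of the other libraries was taken as control. The cationic amino acid transporter Slc7a3 had 373 CPM untreated, 239 with siLuc and 236 with siLin28a, so its siLin28a and siLuc levels were alike and both below untreated.

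Promoters of 3 ATF4 targets are printed because the site through which ATF4 and a C/EBP partner bind, the C/EBP-ATF response element (CARE), could be searched for. The letters searched were TGATGNAAN on both strands, in RefSeq windows from 250 bases before to 50 after the start (GRCm38.p6, a later build than the mm9 of the counts). Capitals mark each match.
Chac1 promoter, GRCm38.p6 chr2:119350992-119351291, plus strand: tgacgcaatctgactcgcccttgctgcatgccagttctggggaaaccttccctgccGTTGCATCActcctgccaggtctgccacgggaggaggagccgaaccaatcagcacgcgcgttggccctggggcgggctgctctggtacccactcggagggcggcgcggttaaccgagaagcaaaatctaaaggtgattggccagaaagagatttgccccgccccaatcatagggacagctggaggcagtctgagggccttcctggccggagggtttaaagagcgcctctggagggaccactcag
Trib3 promoter, GRCm38.p6 chr2:152344011-152344310, minus strand: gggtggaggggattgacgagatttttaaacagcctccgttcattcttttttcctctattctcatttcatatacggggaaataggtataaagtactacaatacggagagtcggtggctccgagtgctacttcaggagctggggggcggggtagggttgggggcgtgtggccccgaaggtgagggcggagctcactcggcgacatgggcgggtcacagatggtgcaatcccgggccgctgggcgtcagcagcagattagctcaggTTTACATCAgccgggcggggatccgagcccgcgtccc
Asns promoter, GRCm38.p6 chr6:7693160-7693459, minus strand: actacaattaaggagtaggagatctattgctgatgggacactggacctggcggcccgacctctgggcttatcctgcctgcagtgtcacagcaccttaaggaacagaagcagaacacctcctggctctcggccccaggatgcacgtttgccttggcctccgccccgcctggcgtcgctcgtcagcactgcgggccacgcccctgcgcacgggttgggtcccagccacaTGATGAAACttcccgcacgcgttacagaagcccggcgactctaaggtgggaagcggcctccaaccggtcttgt

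Of 27 ATF4 targets with a window, 9 (33.3%) held a match, beside 170 of 7185 transcripts with a window (2.37%). The 9 were Chac1, Trib3, Herpud1, Slc1a4, Tars, Gars, Aars, Pck2 and Asns. Their median log2 ratio was -0.61, and that of the targets without a match was -0.50. Asns, asparagine synthetase, had 395 CPM untreated, 483 with siLuc and 447 with siLin28a (log2 ratio -0.11), so a match did not go with a large difference in every gene. All 170 transcripts with a match had a median of -0.08. A gene held a match if any of its windows did, and 1502 of the 7185 had more than 1 window. The shares come from sequence in a list written as ATF4 targets, and no knockdown ratio enters them. The match is a description of these letters and not a measured binding site.

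Aminoacyl-tRNA synthetases, which load amino acids onto tRNAs, overlap the ATF4 set and were lower as a family. The 39 synthetases had a median of -0.30 against siLuc and -0.29 against untreated, 29 of them negative. At least 1.5-fold lower were 5 (12.8%, beside 4.5% of all transcripts), with none that much higher. Nars, for asparagine, had 527 CPM untreated, 680.1 with siLuc and 329.9 with siLin28a (log2 ratio -1.04, -1.11 to -0.98). Its footprints went further, from 207.5 CPM with siLuc to 53.7 CPM with siLin28a. Cars, for cysteine, had 226 CPM untreated, 257 with siLuc and 156 with siLin28a (log2 ratio -0.72). Aars, for alanine, had 658 CPM untreated, 709 with siLuc and 523 with siLin28a (log2 ratio -0.44). The highest members were mitochondrial enzymes. Sars2 had a ratio of 0.53, Cars2 of 0.50 and Aars2 of 0.26, while the mitochondrial valine enzyme Vars2 was lower at -0.63.

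Enzymes that make nucleotides and carry 1-carbon units were lower in most cases. Of 27 purine and pyrimidine synthesis enzymes 21 were negative, with a median of -0.29 against siLuc and -0.25 against untreated. Adsl, which acts in 2 steps of purine synthesis, had 230.2 CPM untreated, 244 with siLuc and 153 with siLin28a (log2 ratio -0.67, -0.77 to -0.57). The phosphoribosyl pyrophosphate synthetases Prps1 and Prps2 had ratios of -0.58 and -0.59. Pfas, at 0.22, and Aprt, at 0.18, were the highest of the list. Among 22 serine, glycine and folate enzymes the median was -0.18 and 5 were at least 1.5-fold lower. Aldh1l1, a cytosolic folate dehydrogenase, was the exception with 12.4 CPM untreated, 19.4 with siLuc and 32 with siLin28a (log2 ratio 0.72).

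Cholesterol synthesis enzymes were also lower. The 21 members had a median of -0.31, and -0.32 against untreated, with 3 at least 1.5-fold lower and none that much higher. Sc4mol, a sterol methyl oxidase, had 95.6 CPM untreated, 107 with siLuc and 61.8 with siLin28a (log2 ratio -0.79). Stard4, a carrier of cholesterol between membranes, had 56.5 CPM untreated, 57.3 with siLuc and 32.2 with siLin28a (log2 ratio -0.83), and Sc5d had a ratio of -0.66. Srebf2, the transcription factor of the pathway, was at 0.14. Export of sterols moved otherwise: Abca1, the transporter that loads cholesterol onto apolipoproteins, was among the highest of all transcripts, with 7.23 CPM untreated, 7.49 with siLuc and 39.9 with siLin28a (log2 ratio 2.40, 2.00 to 2.84). The other sterol exporter Abcg1 had 15 CPM untreated, 12.7 with siLuc and 19.7 with siLin28a (log2 ratio 0.63), the oxysterol receptor Nr1h2 a ratio of 0.60 and the lipid carrier Apoe 0.42. The 15 LXR targets had a median of 0.12, so Abca1 stood far above the rest of its list.

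DNA replication genes were slightly and widely lower. Of 47, 41 were negative, with a median of -0.28, and -0.23 against untreated. At least 1.5-fold lower were 6 (12.8%, beside 4.5% of all transcripts). Cdc6, which loads the helicase at origins, had 118 CPM untreated, 119 with siLuc and 76.8 with siLin28a (log2 ratio -0.63). Gins2 and Gins3, subunits of the moving helicase, had ratios of -0.64 and -0.71. Mcm6 of the MCM helicase had 924 CPM untreated, 1018 with siLuc and 692 with siLin28a (log2 ratio -0.56). The subunits Pold1 and Pold2 of the lagging strand polymerase and Rpa3 of the single strand binding complex were the highest, at 0.30, 0.27 and 0.37. DNA repair genes had a median of -0.16 over 45 members, with Fancb and Rad50 lowest at -0.73 and -0.73. Cyclins and mitotic regulators had a median of -0.09. Among them Ndc80, of the kinetochore, had 44.7 CPM untreated, 112 with siLuc and 59.8 with siLin28a, where siLuc was the high library, and Ccnd3, a G1 cyclin, had 228 CPM untreated, 170.2 with siLuc and 279.9 with siLin28a.

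Genes that build ribosomes and fold or degrade proteins had medians slightly below 0. Ribosome biogenesis factors had a median of -0.21 over 82 members, 65 of them negative, and -0.17 against untreated. Ncl, the nucleolar protein nucleolin, showed the largest loss in CPM of any transcript, a measure that also scales with length and level, with 3392 CPM untreated, 4639 with siLuc and 2971 with siLin28a (log2 ratio -0.64, -0.67 to -0.62). Its gene hosts small nucleolar RNAs and the counting did not state strand. Ddx10 and Mrto4 had ratios of -0.83 and -0.94. The snoRNA host transcripts, a separate list of 8, had a median of -0.21, with Snhg1 with 82.4 CPM untreated, 109.6 with siLuc and 63.2 with siLin28a. Snhg7 had 18.3 CPM untreated, 8.16 with siLuc and 17.3 with siLin28a, so its ratio of 1.08 came with a low siLuc value.

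The 30 cytosolic heat shock proteins and chaperonin subunits had a median of -0.24, with none at least 1.5-fold lower and 1 that much higher. Hsp90aa1, an inducible HSP90, had 592 CPM untreated, 608 with siLuc and 419 with siLin28a (log2 ratio -0.54, -0.60 to -0.48). Hsp90ab1, the constitutive form, was level at 0.08. Cct8 of the chaperonin ring had 1121 CPM untreated, 1324 with siLuc and 935 with siLin28a. Hspa8 was listed higher, but its reads may be shared with pseudogene copies and its value is uncertain. The 43 proteasome genes had a median of -0.23, with the assembly factor Psmg3 at -1.06 and Psmd14, the lid deubiquitinase, at -0.65. The immunoproteasome-associated Psme1 and Psmb10 were higher, at 0.86 and 0.49. Cytosolic ribosomal protein mRNAs had a median of 0.06 over 49 members of 84 in the table, and many share reads with pseudogenes.

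Several of the lowest transcripts belong to none of these groups. Txnip (mm9 chr3:96361880-96365780), the arrestin-domain protein that lowers glucose uptake and is switched on by the glucose sensor MondoA, had 158 CPM untreated, 284 with siLuc and 98.7 with siLin28a (log2 ratio -1.52, -1.64 to -1.41). Its close relative Arrdc4, a target of the same factor, had 51.2 CPM untreated, 71.3 with siLuc and 22.5 with siLin28a (log2 ratio -1.66, -1.90 to -1.43). Both had their highest level with siLuc and their lowest with siLin28a, while the related Arrdc3 was level at -0.04. Slfn9, a Schlafen family member, had 19 CPM untreated, 28.1 with siLuc and 5.41 with siLin28a (log2 ratio -2.37, -2.84 to -1.93). The interferon list that holds Slfn9 had a median of 0.03 over 20 members and Xaf1, another member, was higher at 1.14. Spn, a leukocyte sialoprotein, had 29.4 CPM untreated, 22.1 with siLuc and 7.6 with siLin28a, and the organic cation exporter Slc47a1 had 33.5 CPM untreated, 25.8 with siLuc and 9.89 with siLin28a (log2 ratio -1.38). Mrpl3, of the mitochondrial ribosome, had 73.1 CPM untreated, 90.3 with siLuc and 40.4 with siLin28a (log2 ratio -1.16) in a list of 69 whose median was -0.07. Zinc finger genes named Zfp had a median of -0.06 over 181. At least 1.5-fold lower were 17 (9.39%) and that much higher 10 (5.52%), beside 4.5% and 7.62% of all transcripts. For Zfp951 siLuc was the high library, with 7.88 CPM untreated, 16.5 with siLuc and 8.02 with siLin28a.

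The highest transcripts were mostly of low abundance in the controls, and the choice by a ratio over siLuc favours such transcripts. Apobec2 (mm9 chr17:48558556-48572053), a cytidine deaminase relative, had 5.5 CPM untreated, 5.89 with siLuc and 34.3 with siLin28a, the highest log2 ratio of all at 2.53 (2.08 to 3.03). Its counts were 51 untreated, 44 with siLuc and 329 with siLin28a, so the controls agree within counting error. Islr2, a leucine-rich repeat membrane protein, had 5.07 CPM untreated, 4.82 with siLuc and 26.7 with siLin28a (log2 ratio 2.45, 1.96 to 3.01). Fbp2, the muscle form of fructose bisphosphatase, had 3.89 CPM untreated, 3.75 with siLuc and 19.4 with siLin28a (log2 ratio 2.35, 1.79 to 3.0). In these 3 genes and in Abca1 untreated and siLuc stood together and siLin28a apart. Atp2a3, a calcium pump of the endoplasmic reticulum, combined a large ratio with more counts: it had 20.2 CPM untreated, 22.2 with siLuc and 92.4 with siLin28a (log2 ratio 2.05, 1.82 to 2.31). Its footprints went from 10.8 to 66.4 CPM. Id4, an inhibitor of basic helix-loop-helix factors, had 12.7 CPM untreated, 10.3 with siLuc and 35.8 with siLin28a (log2 ratio 1.79). Zfhx2, a large homeobox and zinc finger gene, had 36.3 CPM untreated, 36.5 with siLuc and 116 with siLin28a (log2 ratio 1.67), but it overlaps the antisense gene Zfhx2as, and without strand their reads cannot be told apart. Of the 146 transcripts, 56 are in at least 1 of the 84 gene lists (38.4%), beside 27.8% of all transcripts. That share is not independent of these data. The lists of immediate early genes and of metallothioneins with zinc or copper genes were added after values were seen. They hold 9 and 2 members at least 2-fold higher.

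Genes of the cell surface and matrix were the most shifted on the higher side. Collagens came first, with a median of 0.59 over 7 members of 36 in the table, and 0.38 against untreated. Col4a1 and Col4a2, the type IV collagens of basement membranes, lie head to head on chromosome 8 and differed together. Col4a1 had 16.4 CPM untreated, 16.3 with siLuc and 47 with siLin28a (log2 ratio 1.52, 1.23 to 1.83), and Col4a2 had 4.1 CPM untreated, 6.29 with siLuc and 23.2 with siLin28a (log2 ratio 1.87, 1.43 to 2.37). The cartilage collagen Col2a1 was the exception at -0.46. Basement membrane genes had a median of 0.37 over 16, and 0.21 against untreated, and 14 of them were positive. Hspg2, perlecan, had 575 CPM untreated, 489 with siLuc and 837 with siLin28a (log2 ratio 0.77, 0.72 to 0.83). The laminin chain Lama3 went the other way, with 54.6 CPM untreated, 59.5 with siLuc and 22.6 with siLin28a (log2 ratio -1.40, -1.64 to -1.16), and its footprint log2 ratio was -1.65. Parietal endoderm markers, 1630 CPM in sum with siLuc and 2005 with siLin28a, hold several of the same genes, and their part in the result was not tested. Fibronectin, Fn1, gained the most CPM of all transcripts, with 3560.2 CPM untreated, 3170.1 with siLuc and 4146 with siLin28a, although its ratio was only 0.39 (0.36 to 0.41).

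Other matrix proteins had a median of 0.26 over 21, and 0.48 against untreated, with 4 at least 1.5-fold higher and none lower. Crtac1, a cartilage matrix protein, had 31.1 CPM untreated, 34.8 with siLuc and 98.3 with siLin28a (log2 ratio 1.5, 1.30 to 1.70). Ctgf, a matricellular growth factor, had 8.53 CPM untreated, 8.7 with siLuc and 22.7 with siLin28a (log2 ratio 1.38). The protease Adamts9 had 17.4 CPM untreated, 20.2 with siLuc and 42.3 with siLin28a. In all 3 genes siLuc and untreated were close. Integrins had a median of 0.20 over 10, with the vitronectin receptor chains Itgb3 and Itgav highest at 1.34 and 0.61.

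Adhesion and guidance proteins were higher too. The 11 cadherins and protocadherins had a median of 0.40, and 0.55 against untreated. Cdh4, R-cadherin, had 7.45 CPM untreated, 5.62 with siLuc and 23.6 with siLin28a (log2 ratio 2.06, 1.59 to 2.58). Cdh1, the E-cadherin that holds stem cell colonies together, was level, with 509 CPM untreated, 442 with siLuc and 455 with siLin28a (log2 ratio 0.04). Among 20 junction and desmosome genes the median was 0.28, and 0.15 against untreated, with 6 at least 1.5-fold higher and 1 lower. Dsp, desmoplakin, which anchors intermediate filaments to desmosomes, had 45 CPM untreated, 87 with siLuc and 238 with siLin28a (log2 ratio 1.45, 1.32 to 1.58), and siLuc already lay above untreated. Tjp3, of tight junctions, had 38.1 CPM untreated, 26 with siLuc and 49.3 with siLin28a (log2 ratio 0.92). Of 24 ephrins, semaphorins, plexins and netrin receptors 23 were positive, with a median of 0.37 against siLuc and 0.15 against untreated. Sema5b, a guidance cue, had 18.3 CPM untreated, 12.8 with siLuc and 43.7 with siLin28a (log2 ratio 1.76, 1.44 to 2.10), and the receptor Plxnb2 had 102 CPM untreated, 85.9 with siLuc and 166 with siLin28a. Sema3e was the 1 negative member, at -0.78.

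Signalling lists leaned the same way, with more weight on the choice of control. Wnt pathway genes had a median of 0.37 against siLuc but 0.01 against untreated, since siLuc lay 0.32 below untreated at the median. Tcf7l1, the TCF factor that restrains Wnt targets in stem cells, had 40.6 CPM untreated, 21 with siLuc and 49.3 with siLin28a (log2 ratio 1.23). The co-receptor Lrp5 had 124 CPM untreated, 98.9 with siLuc and 161 with siLin28a, and the feedback ligase Znrf3 had 45 CPM untreated, 29.3 with siLuc and 45.3 with siLin28a, with siLin28a close to untreated. Notch genes had a median of 0.24 against siLuc and -0.13 against untreated. Notch4, a receptor, stood apart from this reversal, with 28.7 CPM untreated, 31.2 with siLuc and 79.6 with siLin28a (log2 ratio 1.35, 1.14 to 1.57). Notch1 had 80.4 CPM untreated, 60.6 with siLuc and 93.7 with siLin28a, so siLuc was the low library.

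Nodal and BMP response genes had a median of 0.32 over 14, and 0.35 against untreated. Lefty2, an inhibitor of Nodal, had 391 CPM untreated, 382 with siLuc and 588 with siLin28a (log2 ratio 0.62, 0.56 to 0.69), whereas its neighbour Lefty1 had 172 CPM untreated, 189 with siLuc and 106 with siLin28a (log2 ratio -0.83, -0.95 to -0.72). The inhibin chain Inhbb had 67.8 CPM untreated, 61.5 with siLuc and 121 with siLin28a, and the BMP target Id1 had 17.8 CPM untreated, 12.6 with siLuc and 25.7 with siLin28a. FGF and ERK response genes had a median of 0.03, and LIF and STAT3 response genes of 0.05. In the latter list Klf4 was highest and the kinase Pim1 lowest, with 81.5 CPM untreated, 80 with siLuc and 44 with siLin28a (log2 ratio -0.86, -1.04 to -0.68).

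Pluripotency factors were mixed, with several higher. The 27 naive and general factors had a median of 0.29, and 0.13 against untreated, with 5 at least 1.5-fold higher and 1 lower. Klf4, a reprogramming factor that sustains the naive state, had 139.8 CPM untreated, 116 with siLuc and 247 with siLin28a (log2 ratio 1.09, 0.98 to 1.20). Tbx3, a T-box factor of the same network, had 214 CPM untreated, 218 with siLuc and 441 with siLin28a (log2 ratio 1.02, 0.93 to 1.10). Tet2, which oxidises methylated cytosine, had 265 CPM untreated, 253 with siLuc and 512 with siLin28a (log2 ratio 1.02, 0.94 to 1.09). For Tbx3 and Tet2 the untreated and siLuc libraries were close and siLin28a was about 2-fold higher, while for Klf4 siLuc was below untreated. Pou5f1, the core factor OCT4, was 1161 CPM with siLuc and 1420.1 CPM with siLin28a (log2 ratio 0.29), and its partner Sox2 was level between the siRNAs at 0.00. Nr5a2, a nuclear receptor of the network, was lower at -0.48, and the RNA-binding protein L1td1 had 619.8 CPM untreated, 876 with siLuc and 603 with siLin28a (log2 ratio -0.54, -0.59 to -0.49).

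Formative genes, which rise as cells leave the naive state, split in both directions. Otx2 had 58.4 CPM untreated, 52.7 with siLuc and 86.9 with siLin28a (log2 ratio 0.72, 0.55 to 0.90) and Fgf15 and Zic2 had ratios of 0.69 and 0.60. Dnmt3b, the de novo DNA methyltransferase, had 134 CPM untreated, 78.5 with siLuc and 58.3 with siLin28a (log2 ratio -0.43), and Sox11 had a ratio of -0.58. The median over 7 members was 0.35. Dnmt3l, the catalytically inactive partner of the de novo enzymes, had 305 CPM untreated, 333 with siLuc and 181 with siLin28a (log2 ratio -0.88, -0.97 to -0.79). The 17 genes of DNA methylation, demethylation and the APOBEC family had a median of 0.09 against siLuc and -0.11 against untreated, with 2 at least 1.5-fold higher and 3 lower. Hells, a remodeler needed for DNA methylation, had 496 CPM untreated, 637 with siLuc and 396 with siLin28a. The 4 measured members of 23 2-cell-like and germline genes in the table were all negative, with a median of -0.57, and -1.09 against untreated. Among them Tdrd12 and Piwil2, of the piRNA pathway, had ratios of -0.95 and -0.60. Of germ layer and trophoblast genes 4 passed 200 counts. Nes, of neural progenitors, had 8.74 CPM untreated, 10.2 with siLuc and 21.2 with siLin28a, and Stmn2, of neurons, had 164 CPM untreated, 172 with siLuc and 125 with siLin28a. Trophectoderm and mesoderm marker sums, given above and sharing Eomes, were higher with siLin28a as well, and their part in these values was not tested.

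Transcription factors of the Sox, Fox, Klf and Hox families had a median of 0.26 over 33, with 7 at least 1.5-fold higher and 1 lower, and 0.04 against untreated. Foxd3, a factor of stem cells and neural crest, had 65.5 CPM untreated, 36.1 with siLuc and 93.2 with siLin28a (log2 ratio 1.37, 1.17 to 1.57). Klf11 was the lowest, with 33.7 CPM untreated, 37.3 with siLuc and 19.3 with siLin28a (log2 ratio -0.95). Polycomb subunits had a median of 0.13 against siLuc and -0.07 against untreated. The accessory proteins Phf1 and Phf19 were at 1.28 and 1.16, while the methyltransferase Ezh2 had 109 CPM untreated, 141 with siLuc and 94.5 with siLin28a (log2 ratio -0.58) and Pcgf6 a ratio of -0.80. The demethylases Kdm6b and Kdm4b, which remove methyl groups from histone H3, had ratios of 0.99 and 0.90.

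Immediate early genes, which respond within minutes to growth factors or stress, were split into a higher and a level part. In this list, added after values had been seen, 11 of 28 were at least 1.5-fold higher and none that much lower, and the median was 0.36. Jun, of the AP-1 factor, had 7.23 CPM untreated, 7.49 with siLuc and 18.1 with siLin28a (log2 ratio 1.27, 0.83 to 1.74), and Ier5l had 12.8 CPM untreated, 11.6 with siLuc and 35.3 with siLin28a (log2 ratio 1.59). Dusp1, a phosphatase of MAP kinases picked out after its values were seen, had 54.9 CPM untreated, 65 with siLuc and 149 with siLin28a (log2 ratio 1.20). Egr1, picked out likewise, had 95.8 CPM untreated, 21.5 with siLuc and 18.3 with siLin28a, so both siRNA libraries were far below untreated. The metallothioneins Mt1 and Mt2, which bind zinc and copper, had 312 CPM untreated, 198 with siLuc and 412 with siLin28a and 318 CPM untreated, 159.6 with siLuc and 413 with siLin28a, with ratios of 1.06 and 1.37. Both were lowest with siLuc. The other zinc and copper genes did not follow: the list of 18, also added after values had been seen, had a median of 0.01, and the zinc exporter Slc30a1 was at -0.36.

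Among targets of p53, 7 of 30 were at least 1.5-fold higher and none that much lower, with a median of 0.20, and 0.38 against untreated. Perp, a membrane protein of p53-dependent death, had 5.29 CPM untreated, 11 with siLuc and 28 with siLin28a (log2 ratio 1.35, 0.99 to 1.73), and siLuc was above untreated. Ak1, adenylate kinase, had 59 CPM untreated, 44.4 with siLuc and 100.05 with siLin28a (log2 ratio 1.17). The death gene Bax had 281 CPM untreated, 239 with siLuc and 304 with siLin28a, and Trp53 itself 409 CPM untreated, 267 with siLuc and 352 with siLin28a (log2 ratio 0.40). Apoptosis regulators as a list had a median of 0.07 and endoplasmic reticulum chaperones of 0.07.

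Carbon metabolism differed between its arms. The 20 glycolytic genes had a median of 0.28 against siLuc and 0.48 against untreated, with 4 at least 1.5-fold higher and none that much lower. Aldoa, aldolase, had 895 CPM untreated, 866 with siLuc and 1481 with siLin28a (log2 ratio 0.77, 0.73 to 0.82). The glucose transporter Slc2a1 had 434 CPM untreated, 561 with siLuc and 867 with siLin28a (log2 ratio 0.63) and the lactate exporter Slc16a3 had 146 CPM untreated, 144 with siLuc and 257 with siLin28a (log2 ratio 0.83). Gapdh was listed higher at 0.80, but it has many pseudogene copies and its count is uncertain. Targets of hypoxia-inducible factors had a median of 0.24 against siLuc and 0.78 against untreated, with siLuc already 0.31 above untreated. Pdk1, which shuts pyruvate out of the mitochondrion, was the lowest, with 337 CPM untreated, 386 with siLuc and 272 with siLin28a (log2 ratio -0.51). Tricarboxylic acid cycle enzymes had a median of -0.09, with Dld, a subunit of the ketoacid dehydrogenases, with 144 CPM untreated, 192 with siLuc and 111 with siLin28a.

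Fatty acid oxidation genes had a median of 0.21 over 21, and 0.34 against untreated and with Cpt1c at 1.11. Genes chosen by the names of complex I subunits had a median of 0.20 over 35, with 27 positive, and 0.09 against untreated. Ndufa4l2, in the list by its name only, was far above the others. It had 5.18 CPM untreated, 7.89 with siLuc and 23.2 with siLin28a (log2 ratio 1.55, 1.14 to 2.00). Slc25a20, the carnitine carrier, had 42.1 CPM untreated, 52.4 with siLuc and 94 with siLin28a (log2 ratio 0.84). Lists for complexes III and IV, the ATP synthase and the mitochondrial carriers had medians of 0.15, 0.06 and 0.01.

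Membrane transport genes were spread widely. Ion channels and pumps had a median of 0.28 over 36, and 0.10 against untreated, with 8 at least 1.5-fold higher and 1 lower. Grin1, the shared subunit of NMDA receptors, had 15 CPM untreated, 20.1 with siLuc and 60.8 with siLin28a (log2 ratio 1.6, 1.34 to 1.87). The inward rectifier Kcnj12 had 19.5 CPM untreated, 8.03 with siLuc and 21.2 with siLin28a, near its untreated level. Solute carriers outside the SLC25 family had a median of 0.04 over 113, and -0.13 against untreated, with 17 at least 1.5-fold higher (15.04%) and 6 lower (5.31%). The peptide transporter Slc15a1 had 8.85 CPM untreated, 9.23 with siLuc and 23 with siLin28a, and the amino acid transporter chain Slc7a7 had 113 CPM untreated, 103 with siLuc and 54.7 with siLin28a (log2 ratio -0.92, -1.08 to -0.75).

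Families with medians near 0 cover much of the basic machinery. Splicing factors had a median of -0.13 over 83, translation factors of -0.08 over 55, RNA polymerase II and Mediator subunits of -0.02 over 40, and vesicle coat subunits of 0.01 over 49. Each held single members that differed. Hnrnpu, a nuclear matrix RNA-binding protein, had 1795 CPM untreated, 2177 with siLuc and 1414 with siLin28a (log2 ratio -0.62, -0.65 to -0.59), and Srrm2, of the splicing speckle, had 1074 CPM untreated, 1028 with siLuc and 1476 with siLin28a (log2 ratio 0.52, 0.48 to 0.56). Polr2a, the large subunit of RNA polymerase II, had 753 CPM untreated, 793 with siLuc and 1191 with siLin28a (log2 ratio 0.59, 0.54 to 0.63). The elongation factor Eef2 had 3473 CPM untreated, 3849 with siLuc and 4725 with siLin28a. MicroRNA processing genes had a median of -0.02 over 20, with the Argonaute Eif2c1 with 155 CPM untreated, 121 with siLuc and 198 with siLin28a and Zcchc11, the uridylyl transferase that LIN28A recruits to let-7 precursors, at -0.25.

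**Figure D3:**
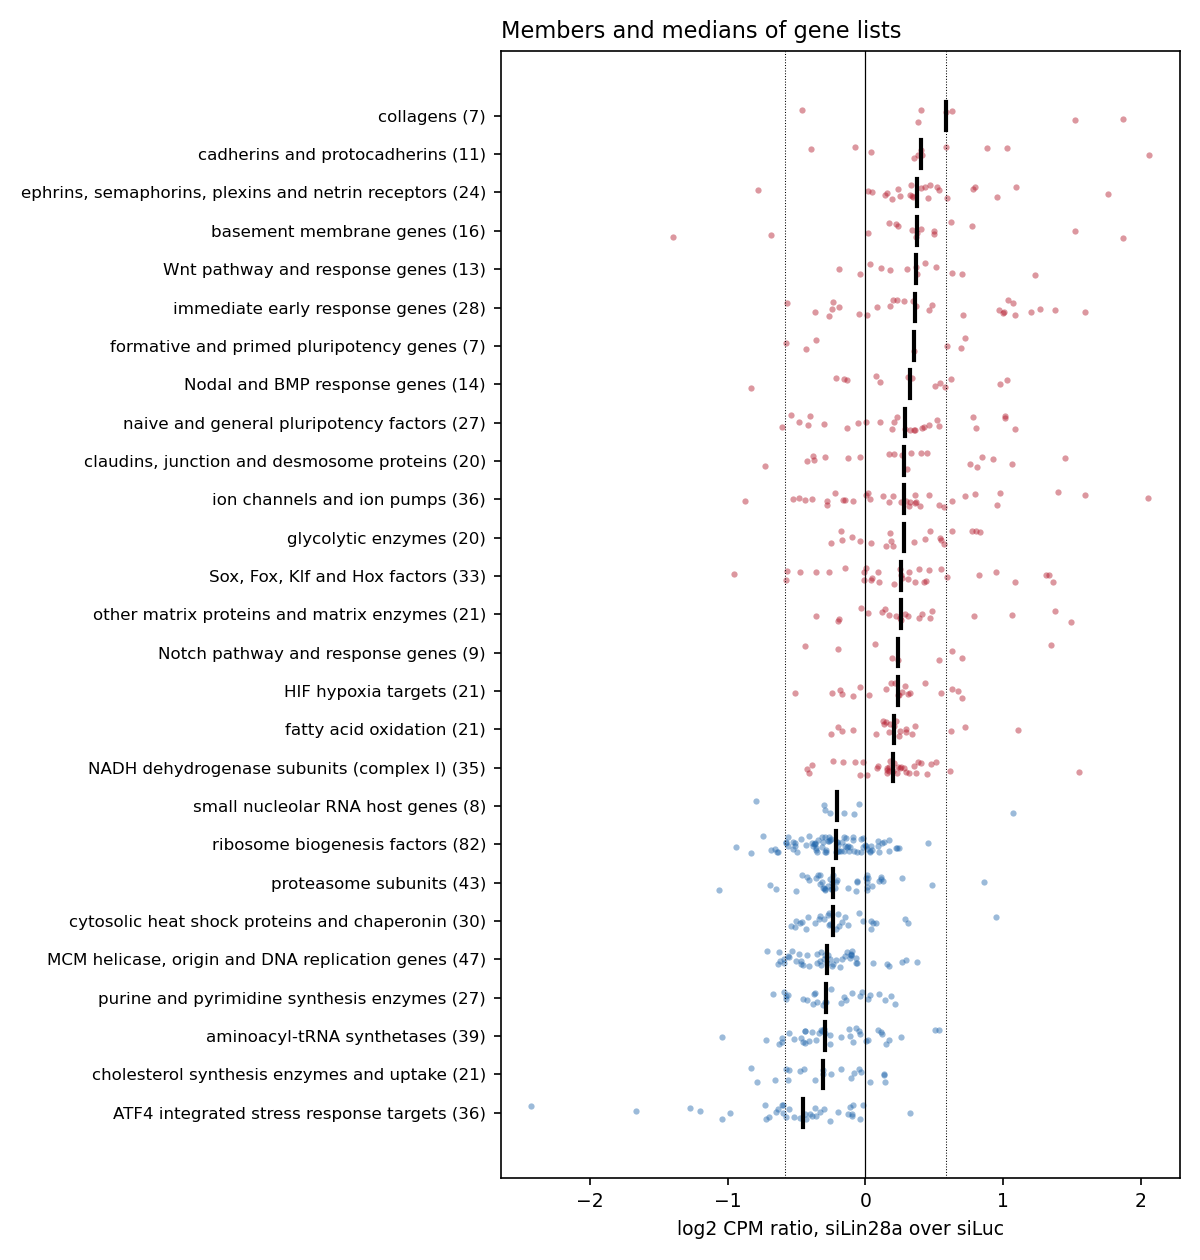
Log2 CPM ratio of siLin28a over siLuc for the measured members (points, number in brackets) of the 27 gene lists with 5 or more members whose median (black bar) is at least 0.2 from 0. The 9 lower lists (blue) run down to -0.46 for ATF4 targets and the 18 higher lists (red) up to 0.59 for collagens, and members of nearly every list lie on both sides of 0. Dotted lines mark 1.5-fold.

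Transcripts at the 2 ends differed in level, length and promoter composition. Levels per length were taken from the deposited RPKM, which divides reads by exon length and library size. The 146 higher transcripts had a median siLuc level of 4.88 RPKM and the 39 lower ones 14.1 RPKM, beside 19.5 RPKM over all. The siLuc level is the denominator of the ratio that chose these sets. The count minimum could also be passed through siLin28a counts alone, so a low siLuc level in the higher set is partly built in. Median exon length was 3719 bases in the higher set and 3009 over all. With transcripts cut into 4 equal bins by exon length, the longest bin held 56 of the higher and 3 of the lower, and the shortest held 27 and 11. With 4 bins by count, the lowest bin held 77 of the higher and 22 of the lower, against 12 and 3 in the highest. The scaled median absolute deviation was 0.46 in the former and 0.31 in the latter. Promoter GC content had a median of 65.7% in 109 higher transcripts with a RefSeq window, 57.0% in 30 lower ones and 61.7% in all 7185. On no chromosome other than the unplaced fragments and Y, which held at most 5 transcripts each, did the median pass -0.14 (chromosome 13) or 0.08 (chromosome 7).

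Ribosome footprints from the same siRNA treatments were counted in a separate table and are a readout that the grouping by mRNA did not use. For 7612 members with at least 50 footprints summed over both siRNA libraries, values are given relative to the median transcript. Its footprint log2 ratio was -0.23. Of 68 higher transcripts with footprints 44 were at least 1.5-fold above that median (64.7%) and none that far below it, beside 19.6% above and 16.1% below over all. Their median was 1.05. Only these 68 of the 146 passed the footprint minimum. It could be passed through siLin28a footprints alone, which favours values above the median in a set of low abundance. Of 22 lower transcripts 9 were at least 1.5-fold below (40.9%) and none above, with a median of -0.45. Across the 7612 transcripts the Spearman correlation of mRNA and footprint ratios was 0.35, as a description over transcripts that share the same libraries.

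**Figure D4:**
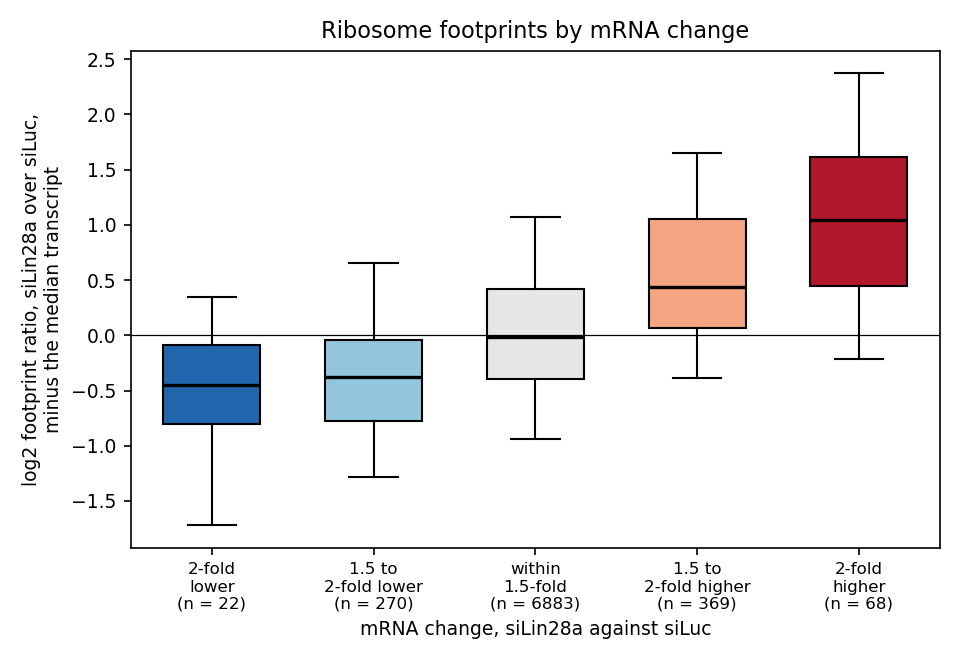
Log2 footprint ratio of siLin28a over siLuc minus the median transcript, for transcripts grouped by mRNA change. Boxes span the 25th to 75th percentile, lines inside mark medians and whiskers reach the 5th and 95th percentile. The median climbs from -0.45 in the group at least 2-fold lower to 1.05 in the group at least 2-fold higher. Transcripts needed at least 50 footprints summed over both libraries, which could come from 1 of them alone.

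Some gene groups had larger medians in footprints than in mRNA, on a scale whose scaled median absolute deviation was 0.62 for footprints and 0.36 for mRNA. Ephrins, semaphorins and plexins, with an mRNA median of 0.37, had a footprint median of 1.18, and 21 of 22 were at least 1.5-fold above. Basement membrane genes were at 1.25 with 14 of 15 above, and the footprints of Col4a1 went from 107 CPM with siLuc to 667 CPM with siLin28a. Ribosome biogenesis factors had a footprint median of -0.67, with 48 of 82 at least 1.5-fold below and none above, although their mRNA median was -0.21. Replication genes were at -0.69, with 27 of 46 below and 1 above, and heat shock genes at -0.71. ATF4 targets were split, with a median of -0.27, 10 of 32 below and 9 above. Cholesterol synthesis genes were at 0.27 in footprints while their mRNAs were at -0.31, and glycolytic genes at -0.38 while their mRNAs were at 0.28. Endoplasmic reticulum chaperones, with an mRNA median of 0.07, were at 0.79, with 23 of 25 above and none below. Lysosomal genes were at 1.06, with an mRNA median of 0.03.

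LIN28A binding was measured in untreated cells by CLIP, in which bound RNA is crosslinked and pulled down, here with the monoclonal antibodies 35L33G and 2J3 and a polyclonal one. Binding is the log2 ratio of CLIP CPM over untreated poly(A) CPM, for 7607 members with at least 50 untreated counts. Neither library of the knockdown contrast enters this ratio. Transcripts at least 2-fold lower after the knockdown had medians of 0.61, 0.51 and 0.55 with the 3 antibodies, over 30 transcripts. Those at least 2-fold higher had medians of -1.10, -1.05 and -1.03 over 65, and all transcripts -0.37, -0.38 and -0.38. In the wider groups, 53.2% of transcripts at least 1.5-fold lower were above 0 with all 3 antibodies, then 40.0% of those 1 to 1.5-fold lower, 25.1% of those 1 to 1.5-fold higher and 24.2% of those at least 1.5-fold higher. The order was the same in transcripts above the median count (56.2%, 39.7%, 23.8% and 21.9%) and in those below it (51.8%, 40.4%, 26.5% and 25.7%). Chac1 and Slfn9, the 2 lowest mRNAs, had 35L33G values of 2.95 and 2.38, Txnip 1.10 and Klf4 -0.91. The untreated library is the denominator here, and a low untreated level raises the ratio, as in Chac1.

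**Figure D5:**
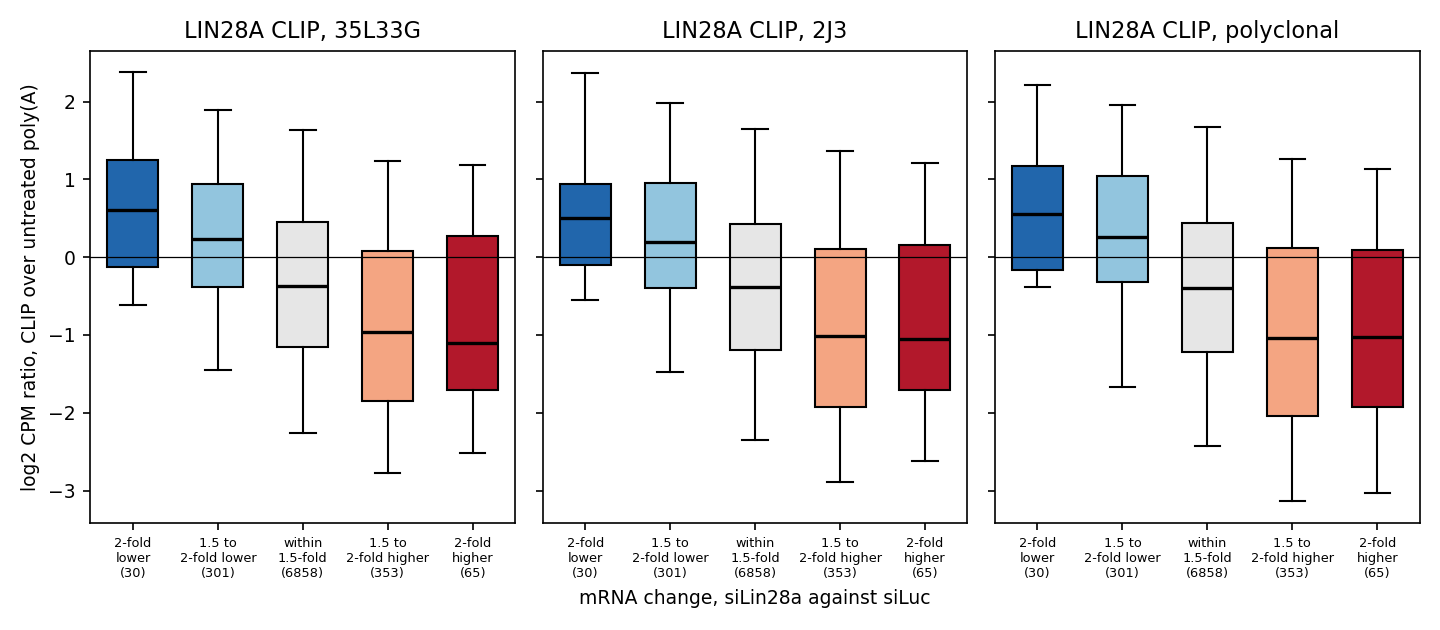
Log2 CPM ratio of LIN28A CLIP over untreated poly(A) RNA for transcripts grouped by mRNA change after the knockdown, with 1 panel per antibody and the number of transcripts in brackets. Boxes span the 25th to 75th percentile and whiskers the 5th to 95th. Medians go from 0.61, 0.51 and 0.55 in the group at least 2-fold lower to -1.10, -1.05 and -1.03 in the group at least 2-fold higher.

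Binding varied among the gene groups at both ends. ATF4 targets had a 35L33G median of -0.10 over 33 members. Among higher lists, cadherins were at 1.12, ion channels at 0.87 and basement membrane genes at 0.50, but glycolytic genes were at -1.34 and immediate early genes at -1.08. Endoplasmic reticulum chaperones, whose mRNA median was 0.07 against siLuc and 0.27 against untreated, were at 1.5, with 23 of 26 above 0 for all 3 antibodies, beside 33.4% of all 7607 transcripts. Ribosome biogenesis factors were at -0.72 and replication genes at -0.89.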

How the data were processed

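Poly(A) RNA of A3-1 mouse embryonic stem cells was measured in 3 libraries. The authors deposited whole-number counts per RefSeq transcript, and RPKM columns in which the authors divided reads by exon length and library size. The submitters' processing notes name the mm9 build, GSNAP and bedtools without versions or roles. The sources used here do not say whether multiply mapped reads or strand were counted, or how RPKM totals were set.

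From the deposited counts, CPM was taken over each column's total: 7475174 for siLuc, 9605641 for siLin28a and 9264777 untreated. Log2 ratios have 0.5 counts added to each library, so they understate low transcripts slightly. Intervals are 95% exact Clopper-Pearson intervals. In 8859 transcripts simulated with counting error only, 95.2% of intervals held the true ratio. In that simulation 200 of 200 transcripts changed 3- or 4-fold passed 2-fold, with 0 of the unchanged. It held no spread between cultures, so it checks the calculation and cannot give the rate of false 2-fold calls in the real libraries. RPKM for levels per length was taken from the deposited columns as given. A gene list was called shifted at a median of 0.2 or more. Alternatives used TMM factors (edgeR 4.0.16), DESeq2 1.42.0 size factors, other count minimums, another pseudocount, 1 transcript per symbol, tallies that match between tables, and the untreated control. Python 3.11.15, pandas 2.3.3, scipy 1.17.1 and R 4.3.3 were used. Per-sample columns not used numbered 27.

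Genes named are Lin28a and Lin28b, the 15 transcripts with the highest lower bound and 15 with the lowest upper bound of the interval, the 10 largest gains and 10 largest losses in CPM, the 3 highest and 3 lowest of each list with its most counted member, and cell type markers. Other genes were picked after their values were seen. The members and lists were chosen with earlier results of these data known. The lists of immediate early genes and of metallothioneins with zinc and copper genes, the 0.2 threshold, and the removal of Argonautes and eIF2 kinases from translation factors came after values were seen. Some members that the rule names are not reported here.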

Additional observations from a re-analysis of the deposited data

How the results depend on the processing

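Counting error is the only error these libraries give. No paired analysis was possible because each condition has 1 poly(A) library. The count minimum set the number of calls: transcripts at least 2-fold higher, 146 as reported, were 247 at a minimum of 100 counts, 66 at 500 and 2132 at 1, and those at least 2-fold lower, 39 as reported, were 77, 16 and 1259. TMM factors gave 141 and 40, DESeq2 size factors 138 and 42, 5 added counts 131 and 33, and transcripts with matching tallies 144 and 35. The untreated library in place of siLuc, which shares the siLin28a library, gave 192 and 48. Over all settings the median transcript lay between -0.015 and 0.035. With TMM or DESeq2 scaling no list median moved beyond the typical counting error of its members. No named gene moved beyond its own counting error. Against untreated, 62 of 82 list medians stayed within that error, 19 moved and 1 reversed, the Notch list at -0.13. Of 553 named genes 339 moved and 2 reversed, Snhg7 at -0.086 and Zfp951 at 0.024. A reversal was counted only for genes at least 2-fold different against siLuc and for list medians at least 0.2 from 0. Smaller values that changed sign are not in those counts, such as the kinesin median (-0.13 against siLuc and 0.10 against untreated). The causes of these shifts were not tested.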

Other observations

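Some markers stayed under 200 counts and so outside the comparison. Eomes, a T-box factor of trophoblast and mesoderm, had 3.13 CPM untreated, 6.96 with siLuc and 14.8 with siLin28a. Sox1, of early neural cells, had 0.648, 1.87 and 4.48 CPM in the same order. Dppa3, a naive and germline marker, had 9.28, 9.23 and 3.44 CPM. Zscan4d and Tcstv1, of 2-cell-like cells, were at 0 in both siRNA libraries, where 3 counts would be 0.401 CPM with siLuc and 0.312 CPM with siLin28a.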
